A study of Mus musculus with 8 samples.

Results

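The genes described here encode the constitutive proteasome subunits, that is, the subunits of the protease that is present in most cells without immune induction. They were chosen by name, as the protein-coding genes whose symbol is Psma, Psmb, Psmc or Psmd followed by a number, without the immune-induced catalytic subunits Psmb8, Psmb9 and Psmb10 and the thymus and testis subunits Psmb11 and Psma8. This gave 34 of the 49315 genes counted. Of these, 14 build the core particle (7 alpha and 7 beta subunits). The other 20 belong to the regulatory particle and comprise 6 ATPases and 3 further subunits of its base, 8 subunits of its lid and 3 chaperones that assemble it.

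RNA was taken from the gastrocnemius, the large muscle of the calf, of C57BL/6 mice aged 3, 12, 24 or 30 months, and was sequenced in 2 libraries per age. No allele, transgene or treatment is given in the labels. The question is how the muscle transcriptome differs between ages. Whether the libraries of one age came from separate mice is not in the labels, so every p-value here measures only the spread between libraries, which may be technical.

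The proteasome degrades proteins that carry ubiquitin. Its core is a barrel of stacked rings, in which the outer alpha rings gate the entry and the inner beta rings hold the proteolytic sites, and the regulatory particle that caps the barrel binds ubiquitin, removes it and unfolds the substrate with a ring of ATPases. In muscle this is a main route by which myofibrillar proteins are broken down, and it is known for its part in atrophy after disuse or denervation.

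Library totals ran from 42404254 to 59245029 counts, and the 34 genes together took 0.249% to 0.3% of them. Every one of the 34 genes passed the low count filter, which left 19571 genes for testing, and no member had fewer than 258 counts in any library. The summed level of 8 skeletal muscle markers was 89020 to 185000 CPM (counts relative to the library total, scaled by TMM, edgeR's trimmed mean of M-values), and all 8 were detected in every library. Some marker sums differed between 3 months and the later ages. Slow fibre markers summed to 766 and 500 CPM at 3 months and 914 to 2676 CPM in the 6 later libraries, fibroblast markers to 1220 and 1324 CPM against 538 to 1106 CPM, and 9 kidney markers to 49.8 and 15.6 CPM against 0.468 to 4.83 CPM. The libraries of one age also differed from each other. A clock score, the mean log2 CPM of Dbp, Tef, Nr1d1, Per3 and Ciart minus that of Arntl, Npas2 and Clock, which peak at opposite times of day, was 2.75 to 3.3 in the second library at 12 and at 24 months and in the first at 30 months, and -0.77 to 0.86 in the other 5 libraries. Both libraries of 3 months had a low score. Of the 8 clock genes, Nr1d1 went against the score at 12 months (24 CPM with a high and 41.3 CPM with a low score) and at 24 months (32.5 and 61.4 CPM). The 3 libraries with a high score had the lowest summed kidney markers, at 0.468 to 0.682 CPM, against 3.29 to 49.8 CPM in the other 5. Replicate 2 of 24 months also stood apart, among the members and among other genes. It held the highest level of 13 of the 34 members. In it 7 members lay more than 0.25 log2 units from their own mean, against 0 to 4 in the other libraries. The SD of such deviations over the members was 0.232 there. Over all genes between the lowest and highest members in mean level, it was 0.34 there and 0.137 to 0.255 elsewhere.

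The members spanned a wide range of levels per length, and the subunits of one ring were not at one level. In RPKM (TMM-scaled CPM per kilobase of summed exons), the mean over libraries was highest for Psmb5, the chymotrypsin-like catalytic subunit, at 86.7 RPKM. Next came Psmb1, a beta subunit without a catalytic site, at 75.3 RPKM and the ATPase Psmc1 at 72.2 RPKM. The 7 beta subunits had a median of 55.9 RPKM and a range of 32.8 to 86.7. The 7 alpha subunits had a lower median of 24.8 RPKM, between Psma1 at 17.5 and Psma2 at 61.1. Within the core the highest gene was thus 4.95 times the lowest by this measure, although each subunit is present in equal number in the particle. These differences depend on the lengths used. Psmb5 and Psmb3 were both at 75.5 CPM, but their summed exons are 871 and 2300 bases. Whether the summed exons match the transcripts present in the muscle was not tested.

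The regulatory particle spanned more. Its 6 base ATPases, the unfolding motor, had a median of 40 RPKM, between Psmc2 at 14.2 and Psmc1 at 72.2. The scaffold subunits Psmd1 and Psmd2 stood at 20.9 and 48.7 RPKM, and the ubiquitin receptor Psmd4 at 48.3 RPKM. The 8 lid genes ran from Psmd11 at 7.78 RPKM to Psmd8 at 56.3 RPKM, with Psmd14, the deubiquitinase of the lid, at 12.5 RPKM. The assembly chaperones Psmd9, Psmd5 and Psmd10, which leave before the particle is mature, were the lowest members at 1.99, 2.38 and 3.99 RPKM. The order of the members by level was much alike in every library, with a Spearman rho across the 34 genes of 0.948 to 0.998 over the 28 pairs of libraries, given as a description since the libraries share gene lengths and the genes are not independent. Neighbours in this order were often closer than their spread over libraries, as with Psma2 at 61.1 and Psmb6 at 61 RPKM.

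**Figure D1:**
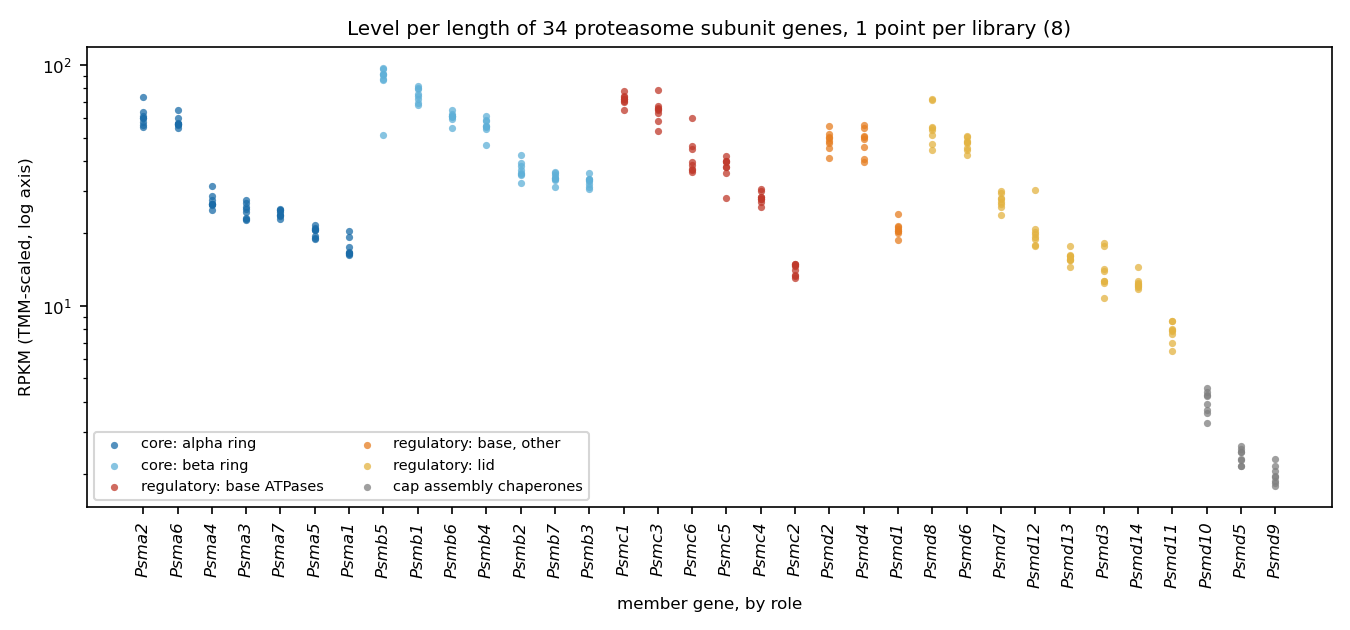
Level per length (RPKM, log axis) of the 34 member genes, ordered by role and by mean level, with 1 point per library. The 8 points of a gene lie close together for most members, Psmb5 is the highest by its mean of 86.7 RPKM, and the 3 assembly chaperones lie lowest at 1.99 to 3.99 RPKM.

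The counts of some members carry an uncertainty that the spread between libraries does not show. In the annotation, 15 members overlap another gene, 12 of them on the other strand, and no strand setting for the counting is given in the sources used here. Psmd3 overlaps Gm12356, Psmc3 overlaps Slc39a13 and Psmd9 overlaps Hpd, each on the other strand. The catalytic genes Psmb5, Psmb6 and Psmb7 have named pseudogenes, whose reads the counting could have split.

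Most members varied little between libraries of one age. The within-age SD of log2 CPM had a median of 0.10 over the members, against 0.25 over the 19571 genes tested and 0.17 over the 8540 genes whose mean level lay between those of the lowest and highest members. Of the 34 members, 30 lay below the median of all genes and 28 below that of the genes in their range of levels. Across all 8 libraries, 29 members varied by less than 1.5-fold from the lowest to the highest library, a count not made over all genes. Psma7, an alpha subunit, varied least of all members, by 1.10-fold. The 5 others were Psmb5 with 1.90-fold, the lid subunits Psmd12, Psmd3 and Psmd8 with 1.71-, 1.69- and 1.61-fold, and the ATPase Psmc6 with 1.67-fold.

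**Figure D2:**
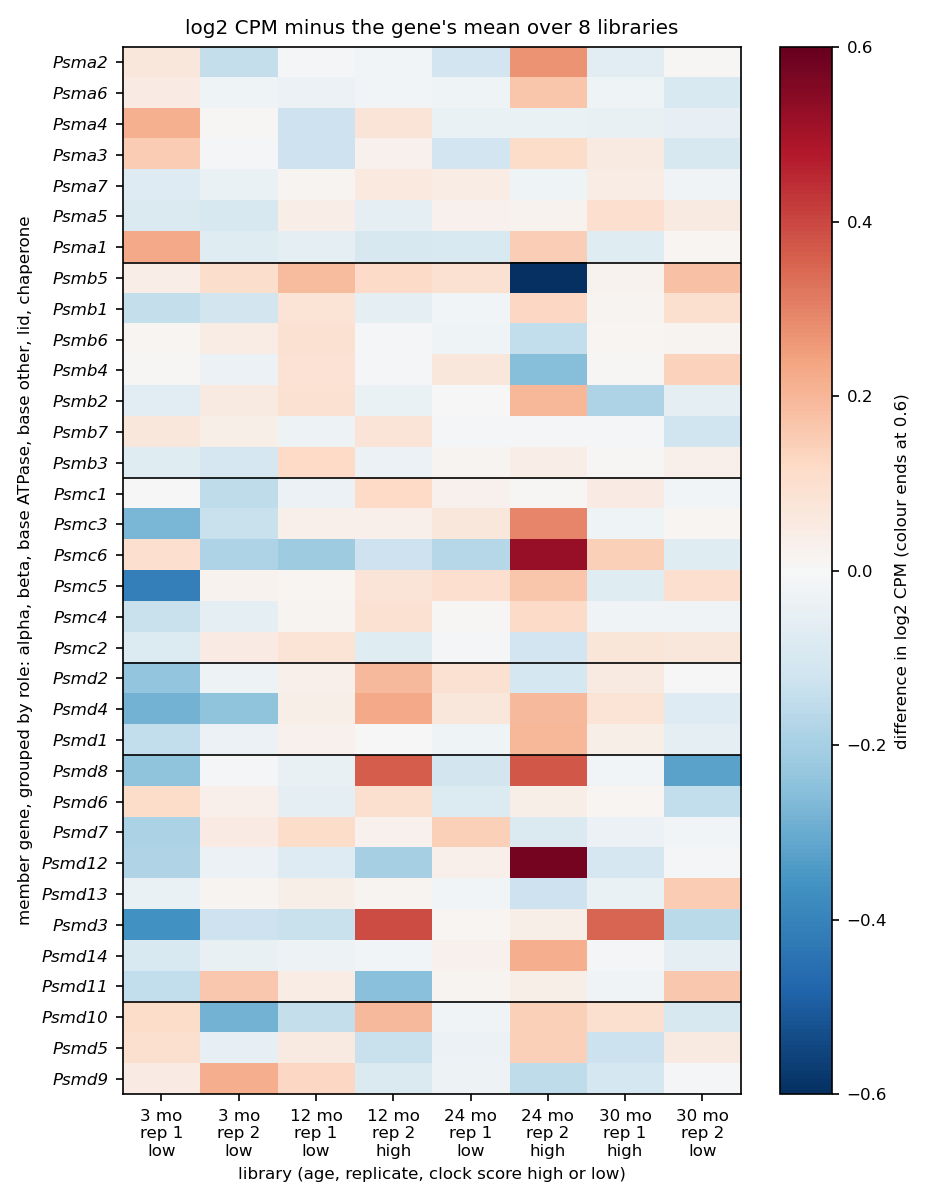
Difference of each library's log2 CPM from the gene's mean over the 8 libraries, for the 34 members in rows grouped by role and the libraries in columns. Most cells are pale, and the strong colours belong to few genes. In replicate 2 of 24 months these are Psmb5, Psmc6, Psmd12 and Psmd8, and in replicate 1 of 3 months Psmc5 and Psmd3. Psmd8 and Psmd3 are also strong in replicate 2 of 12 months. At 30 months Psmd3 is strong in replicate 1 and Psmd8, below its mean, in replicate 2. Of the libraries with a high clock score, Psmd8 is pale in replicate 1 of 30 months and Psmd3 in replicate 2 of 24 months.

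The 3 catalytic subunits, which cut after different residues, were at similar levels at all ages, apart from Psmb5 in 1 library. Psmb6, the caspase-like subunit (chr11:70525367-70527858, GRCm38), was at 115 and 118 CPM at 3 months, then 121 and 113 at 12, 112 and 103 at 24 and 115 and 115 at 30 months, with replicate 1 first at each age here and below. Psmb7, the trypsin-like subunit (chr2:38588036-38644087), was at 122 and 119 CPM at 3 months, then 114 and 123 at 12, 116 and 116 at 24 and 115 and 107 at 30 months. The libraries of 30 and 3 months thus overlapped for Psmb6 and did not for Psmb7, whose 30 month libraries were both slightly lower. Psmb5 (chr14:54614120-54617995) was at 76.3 and 79.9 CPM at 3 months, then 84.7 and 80.3 at 12, 79.1 and 44.5 at 24 and 75.2 and 83.9 at 30 months. One library, replicate 2 of 24 months, was far below the other 7 for Psmb5, and at 24 months the mean was 61.8 ± 24.5 CPM (SD, n = 2) against 78.1 ± 2.53 CPM at 3 months.

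Summed over its 14 genes, the core particle was nearly constant. Its summed level was 1079 and 1041 CPM at 3 months, then 1074 and 1061 at 12, 1046 and 1041 at 24 and 1050 and 1059 at 30 months, so that the highest library was 1.04 times the lowest. The 20 regulatory genes summed to 1481 and 1590 CPM at 3 months, then 1647 and 1773 at 12, 1661 and 1831 at 24 and 1684 and 1597 at 30 months, a range of 1.24-fold. The lowest of these sums was in replicate 1 of 3 months, and the 3 highest were in the 3 libraries with a high clock score. Without Psmd8 and Psmd3, left out after their values were seen, the regulatory sums were 1283 and 1358, 1420 and 1465, 1434 and 1540, and 1428 and 1399 CPM in the same order. The ratio of the regulatory to the core sum, which no scaling of the libraries can move, ran from 1.37 in replicate 1 of 3 months to 1.76 in replicate 2 of 24 months. In a bulk tissue, a change in the share of a cell type and a change in the RNA per cell cannot be told apart.

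**Figure D3:**
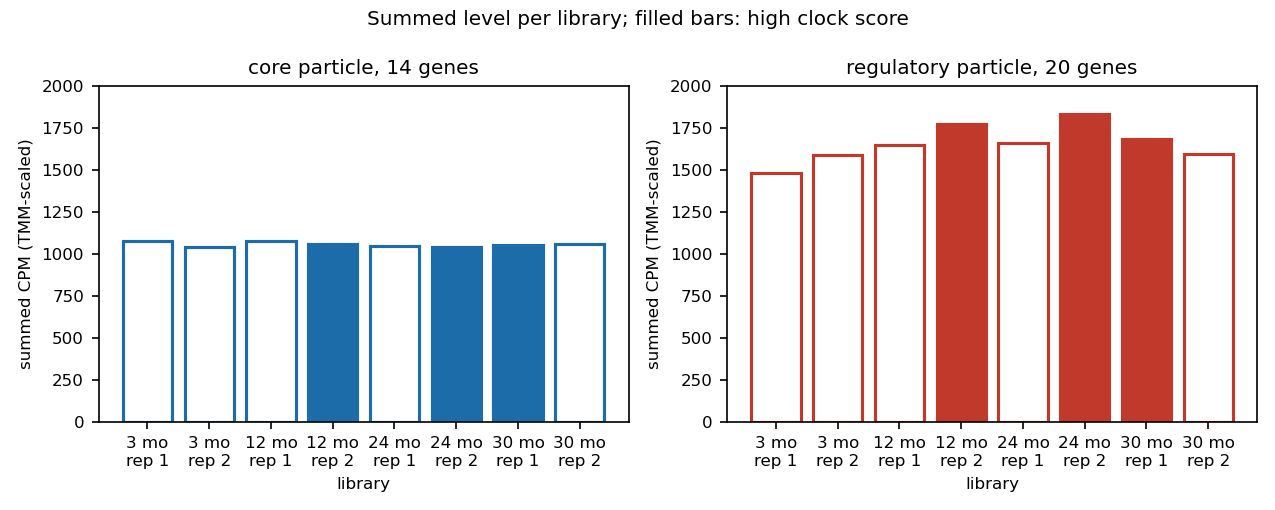
Summed CPM of the 14 core particle genes (left) and the 20 regulatory particle genes (right) in each library, with axes from 0 and filled bars for libraries with a high clock score. The core bars lie between 1041 and 1079 CPM, and the regulatory bars between 1481 and 1831 CPM with the filled bars highest.

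Between 30 and 3 months no member passed the test (edgeR's quasi-likelihood test, Benjamini-Hochberg adjusted p below 0.05), where 0.148% of all genes did. No member had an unadjusted p below 0.05 either, against 8.52% of all genes, and DESeq2 and limma-voom called no member in this or any other comparison of ages. The log2 fold changes ran from -0.20 to 0.36. The estimate was above 0 for 23 of the 34 members, compared with 51.4% of all genes tested. The core had a median of -0.005 with 7 of 14 above 0, and the regulatory particle a median of 0.07 with 16 of 20 above 0, beside a median of 0.009 over all genes. All 6 base ATPases and all 3 other base subunits had estimates above 0, none of which passed the test. The regulatory median was 0.02 without the first library of 3 months and 0.12 when the second was left out.

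The estimates of this comparison were more precise for the members than for genes in general, with no match for level. The spread behind them is that between libraries, which may be technical. The median standard error was 0.15 log2 units over the members and 0.26 over all genes. The 95% interval of the fold change lay within ±0.5 log2 units (1.41-fold) for 23 of the 34 members, against 18.2% of all genes, and within ±1 log2 unit for all 34, against 59.9%.

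The members of lowest p between 30 and 3 months were Psmd4, Psmd3, Psma5, Psmd9, Psmb1 and Psmc3. Psmd4 (chr3:95032694-95042614), the ubiquitin receptor of the base, was at 110.7 and 114 CPM at 3 months, then 138 and 158 at 12, 141 and 154 at 24 and 142 and 128 at 30 months. Both libraries of 3 months were below the other 6 for Psmd4. Its log2 fold change was 0.27 (SE 0.16, 95% interval -0.09 to 0.62, adjusted p = 0.709 by edgeR). Psmd3 (chr11:98682554-98695979), a lid subunit, was at 53.5 and 63.2 CPM at 3 months, then 62.8 and 90.4 at 12, 69.4 and 70.7 at 24 and 87.8 and 61.7 at 30 months. At 30 months the replicates of Psmd3 differed by more than the ages did, and its log2 fold change of 0.36 (SE 0.22 and adjusted p = 0.733 by edgeR) was 0.08 without replicate 1 of 30 months and 0.16 with clock state as a term. Psma5, an alpha subunit, had a log2 fold change of 0.17 (SE 0.12), Psmb1 of 0.19 (SE 0.14) and the ATPase Psmc3 of 0.20 (SE 0.16). The chaperone Psmd9 had one of -0.20 (SE 0.15), and the adjusted p of these 4 was 0.793 to 0.814 by edgeR. Psmc3 was at 0.13 without the first library of 3 months and 0.27 without the second. Psmd9 was at -0.28 without the first and -0.10 without the second. Libraries of 30 and 3 months did not overlap for 9 members that were higher and 5 that were lower at 30 months, that is 26.5% and 14.7% of the members, where all genes gave 21.1% and 20.2%.

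**Figure D4:**
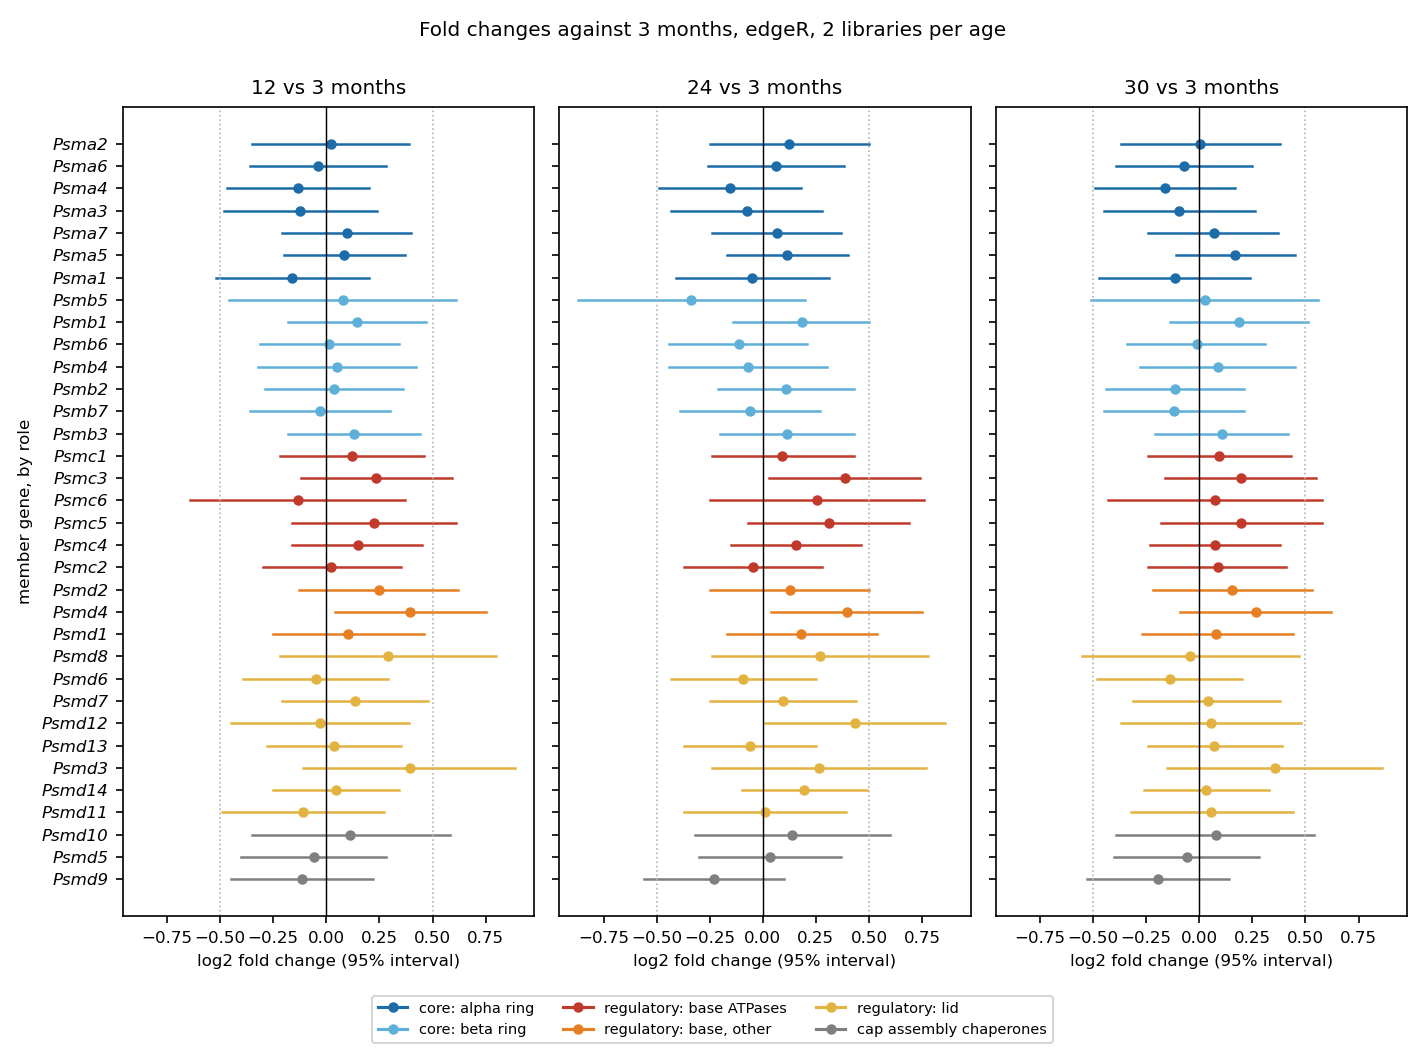
log2 fold change (point) and 95% interval (line) of each member at 12, 24 and 30 months against 3 months, from edgeR with 2 libraries per age, coloured by role, with dotted lines at ±0.5. Points lie between -0.34 and 0.43 in the 3 panels, no member passed the adjusted threshold, and the base and lid genes lie mostly to the right of 0.

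At 12 and 24 months the picture was alike in that no member passed the test. Both comparisons use the same 3 month libraries as the one above, so they are not independent of it. At 24 months 0.102% of all genes passed against 3 months, and at 12 months 0.0409%. At an unadjusted p below 0.05 there were 3 members at 24 months (8.82% of members, 7.56% of all genes) and 1 at 12 months (2.94% of members, 5.5% of all genes). The core medians were 0.005 at 24 months and 0.027 at 12 months, and the regulatory medians 0.15 and 0.11, beside 0.015 and 0.004 over all genes. The regulatory median at 24 months was 0.07 without replicate 2 of 24 months, 0.22 without replicate 1, and 0.09 with clock state as a term (both libraries of 3 months have a low score). That at 12 months was 0.02 without the first library of 3 months, and 0.05 when the second of 12 months was left out. Libraries did not overlap for 13 members higher and 4 lower at 24 months (20% and 19.4% of all genes), and for 11 higher and 0 lower at 12 months (19.3% and 19.2% of all genes).

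Psmd4, Psmc3 and Psmd12 had the lowest p at 24 against 3 months. Psmd4 had a log2 fold change of 0.40 (SE 0.16 and adjusted p = 0.618 by edgeR). Psmc3 (chr2:91054009-91066369), an ATPase of the base, was at 139 and 153 CPM at 3 months, then 172 and 172 at 12, 176 and 206 at 24 and 165 and 170 at 30 months. For Psmc3, as for Psmd4, both libraries of 3 months were the lowest of the 8, and the log2 fold change at 24 months was 0.39 (SE 0.16 and adjusted p = 0.633 by edgeR). Psmd12 (chr11:107479484-107504362), a lid subunit, was at 47.5 and 52.5 CPM at 3 months, then 51.1 and 46.9 at 12, 55.1 and 80.1 at 24 and 50.3 and 53.6 at 30 months. Only replicate 2 of 24 months was high for Psmd12, and the log2 fold change of 0.43 (SE 0.19 and adjusted p = 0.651 by edgeR) was 0.13 without that library. At 12 against 3 months the members of lowest p were Psmd4 with 0.40 (SE 0.16), Psmd3 with 0.39 (SE 0.22) and Psmc3 with 0.23 (SE 0.16), at adjusted p of 0.898 to 0.901 by edgeR. Psmd3 was at 0.10 without replicate 2 of 12 months, 0.63 without replicate 1 and 0.19 with clock state as a term. The slow fibre, fibroblast and kidney markers given above separate the 3 month libraries from the later ones as Psmd4 and Psmc3 do, and their part in these values was not tested.

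No member passed the test between 24 and 12 months (0% of all genes), 30 and 12 months (0.00511%) or 30 and 24 months (0%). Only Psmd12, between 24 and 12 months, had an unadjusted p below 0.05, where 3.07% of all genes did; between 30 and 12 and between 30 and 24 months no member did, where 5.21% and 3.1% of all genes did. Its log2 fold change between 24 and 12 months was 0.46 (SE 0.19 and adjusted p = 0.994 by edgeR) and 0.17 without replicate 2 of 24 months. In that comparison Psmb5 had -0.42 (SE 0.24) and Psmc6 0.39 (SE 0.23), which were -0.06 and -0.003 without the same library. Between 30 and 12 months the lowest p belonged to Psmd8 with -0.33 (SE 0.23 and adjusted p = 0.999 by edgeR), followed by the beta subunit Psmb2 and the lid subunit Psmd11 with -0.15 and 0.17. Without replicate 2 of 12 months Psmd8 was at -0.12 and Psmd11 at 0.03, without replicate 2 of 30 months they were at -0.19 and 0.07, and Psmb2 was at -0.08 without either replicate 1. Between 30 and 24 months it belonged to Psmd12 with -0.38 (SE 0.19 and adjusted p = 0.998 by edgeR), followed by Psmb2 with -0.22 and Psmb5 with 0.37. Without replicate 2 of 24 months these were -0.08, -0.12 and 0.01.

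A test across the 4 ages called no member, where 0.0613% of all genes were called, and a slope on age in months called none, where 0.133% were. None of the 34 had an unadjusted p below 0.05 in either test, against 5.66% and 9.83% of all genes. Across the ages the lowest adjusted p of a member was 0.924 by edgeR, for Psmd12 and Psmd4, followed by 0.927 for Psmc3. On the slope it was 0.624 for Psmd9 by edgeR, with an estimate of -0.008 log2 units per month, followed by Psmc3 with 0.009 and Psma5 with 0.006.

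The promoters of the members were read from RefSeq on GRCm38.p6, as 250 bases before and 50 after a start site. The table gave 30 promoters of 28 members, and none for Psmb1, Psmb2, Psmb7, Psmc3, Psmd3 and Psmd7. They were searched on both strands for TGACNNNGC, the core of the antioxidant response element to which Nfe2l1, a transcription factor of proteasome genes, can bind. They were also searched for CACGTG (the E-box, bound by the clock factors Clock and Arntl), TTATGTAA or TTACGTAA (the D-box, bound by Dbp and Tef) and CCAAT (bound by NF-Y). Matches of different motifs did not overlap each other. The promoters printed here are those of the members that the comparisons turn on, Psmb5, Psmc6 and Psmd8, over the 250 bases before the start, and the stretches of 60 bases that hold the match in Psmb6 and the only E-boxes among the members. Capitals mark a match, and Psmd8 has none. In Psmc6 the capitals are the antioxidant core read on the other strand. The Psmd8 window reaches into the gene as the files place it (chr7:29174188-29180701), whose start lies upstream of the RefSeq start, and the Psmd9 window lies inside the gene in the files (chr5:123169413-123250131).
Psmb5 promoter, chr14:54617996-54618245 (minus strand): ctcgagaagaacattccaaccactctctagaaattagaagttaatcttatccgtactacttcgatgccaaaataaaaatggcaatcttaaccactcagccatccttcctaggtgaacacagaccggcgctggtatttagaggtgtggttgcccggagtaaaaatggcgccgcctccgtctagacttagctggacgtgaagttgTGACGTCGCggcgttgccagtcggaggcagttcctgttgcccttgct
Psmb6 promoter, chr11:70525297-70525356 (plus strand): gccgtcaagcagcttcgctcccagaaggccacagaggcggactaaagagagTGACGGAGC
Psmc6 promoter, chr14:45329574-45329823 (plus strand): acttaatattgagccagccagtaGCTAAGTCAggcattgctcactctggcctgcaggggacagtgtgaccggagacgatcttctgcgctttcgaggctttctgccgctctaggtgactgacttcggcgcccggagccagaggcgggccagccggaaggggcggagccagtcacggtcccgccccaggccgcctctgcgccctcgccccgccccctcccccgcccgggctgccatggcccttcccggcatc
Psmd8 promoter, chr7:29180674-29180923 (minus strand): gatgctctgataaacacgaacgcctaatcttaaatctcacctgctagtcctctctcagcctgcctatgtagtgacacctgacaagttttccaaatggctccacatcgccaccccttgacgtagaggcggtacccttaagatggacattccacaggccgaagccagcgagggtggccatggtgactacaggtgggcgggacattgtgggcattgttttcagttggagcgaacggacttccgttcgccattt
Psmd9 promoter, chr5:123228130-123228189 (plus strand): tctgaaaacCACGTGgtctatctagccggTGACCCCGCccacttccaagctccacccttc
Psma4 promoter, chr9:54950689-54950748 (plus strand): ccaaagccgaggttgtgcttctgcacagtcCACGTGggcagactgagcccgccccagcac

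The shares of member promoters with these letters were near those of all promoters. TGACNNNGC stood in 5 of 30, those of Psmb5, Psmb6, Psmc6, Psmd12 and Psmd9, or 16.7% against 12.4% of all 32851 promoters of the same length. CACGTG stood in 2, those of Psma4 and Psmd9, or 6.67% against 7.15%. The D-box stood in none, against 1.06%, and CCAAT in 11, or 36.7% against 37.4%. Of the members that varied most between libraries, Psmb5, Psmc6 and Psmd12 hold the antioxidant core, Psmd8 has no match and Psmd3 has no promoter here. In replicate 2 of 24 months Psmb5 was low while Psmc6 and Psmd12 were high. Psmb6, with the same core, was at 103 CPM there, its lowest level of the 8 libraries. These are matches of letters in one window and show no binding, and their part in the levels was not tested.

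The clock score was taken up next, because it split the libraries of each later age. The comparison of the 3 libraries with a high score with the 5 with a low score kept age as a term, so that it rests on the differences between the 2 libraries at 12, 24 and 30 months. No member passed the test (adjusted p below 0.05 by edgeR), where 5.74% of all genes did, 516 higher and 607 lower with a high score. At an unadjusted p below 0.05 there were 4 members, Psmd8, Psmd3 and Psmc6 higher and Psmb5 lower, or 11.8% of members against 22.6% of all genes. The core median was -0.005 and the regulatory median 0.065, beside -0.015 over all genes. Scaled by library totals alone, the median of all genes was -0.22, and relative to it the core and regulatory medians were 0.01 and 0.08.

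Psmd8, which encodes a lid subunit, came nearest to the threshold. It was at 144 and 169 CPM at 3 months, then 165 and 218 at 12, 157 and 220 at 24 and 168 and 136 at 30 months, where the high score belongs to the second, the second and the first library. At each of these 3 ages the library with the high score was higher, by 0.41, 0.48 and 0.30 log2 units, but one of the 3 month libraries, with a low score, was slightly above the 30 month library with a high score. The log2 fold change was 0.40 (SE 0.12, 95% interval 0.15 to 0.65, adjusted p = 0.0662 by edgeR). This call depended on the procedure: the adjusted p was 0.0199 by DESeq2 and 0.0224 by edgeR without a low count filter. It was 0.3 by edgeR with library totals, where the log2 fold change was 0.20 and the median of all genes -0.22.

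Psmd3 was higher with a high score at 12 and 30 months, by 0.52 and 0.51 log2 units, and near equal at 24 months with 0.03. Its log2 fold change was 0.36 (SE 0.13 and adjusted p = 0.124 by edgeR). It passed the threshold without a low count filter (adjusted p = 0.0388 by edgeR). Without replicate 1 or replicate 2 of 24 months its log2 fold change was 0.52 or 0.51. Both of these fits rest on the same pairs of 12 and 30 months. They leave out the age at which Psmd3 was near equal. The values of Psmb5 and Psmc6 rested on one library. Psmb5 had a log2 fold change of -0.35 (SE 0.14 and adjusted p = 0.169 by edgeR), from differences of -0.08, -0.83 and -0.16 at the 3 ages, and without replicate 2 of 24 months it was -0.12. With library totals it was -0.55 (adjusted p = 0.0293 by edgeR), which counts the shift of all genes.

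Psmc6 (chr14:45329824-45349071) was at 70.1 and 57.4 CPM at 3 months, then 56.4 and 59.9 at 12, 58.1 and 94 at 24 and 72.1 and 62.1 at 30 months. Its highest library was again replicate 2 of 24 months, while of the other libraries with a high score that of 30 months lay just above all with a low score and that of 12 months among them. The log2 fold change of 0.33 (SE 0.14 and adjusted p = 0.170 by edgeR) was 0.15 without that library. The next members by p were Psmb4, a beta subunit, with -0.18 (SE 0.11) and Psma3, an alpha subunit, with 0.17 (SE 0.11), at adjusted p of 0.337 and 0.363 by edgeR. Scaled by library totals, Psma3 was at -0.03, where the median of all genes was -0.22.

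Over all members, the library with the high score was the higher one at 12, 24 and 30 months for 12 of 34 and the lower one at all 3 ages for 6. These are 35.3% and 17.6% of the members, where all genes gave 21.2% and 22.2%. Without overlap over the 8 libraries, Psmd3 and Psmd4 were higher with a high score and Psmd9 was lower, or 2 higher and 1 lower of the 34 (8.27% and 7.37% of all genes). The 95% intervals lay within ±0.5 log2 units for 29 of the 34 members, against 34.6% of all genes.

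**Figure D5:**
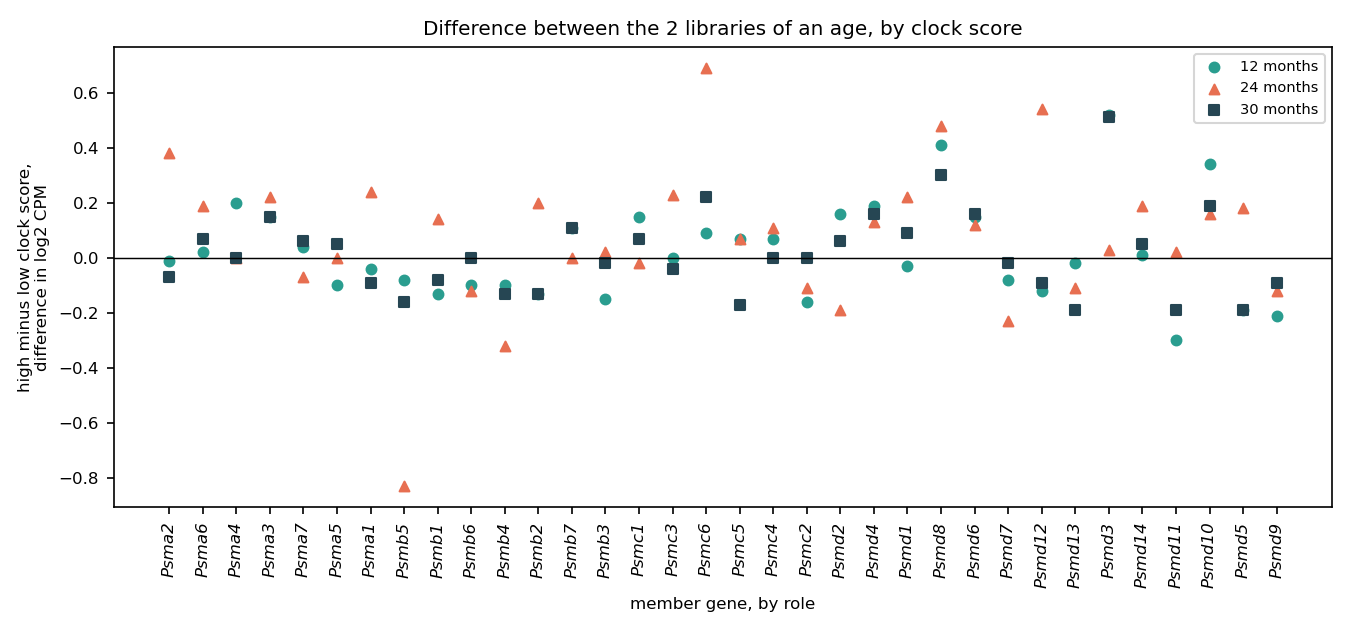
Difference in log2 CPM between the library with the high and the library with the low clock score at 12, 24 and 30 months (1 symbol per age), for each member ordered by role. Psmd8 lies above 0 at all 3 ages (0.41, 0.48 and 0.30), Psmd3 at 12 and 30 months mainly, and the points of 24 months for Psmb5 (-0.83), Psmc6 (0.69) and Psmd12 (0.54) lie far from those of the other ages.

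Other properties moved with the clock score. All 9 kidney markers were lower on average in the 3 libraries with a high score, 8 of them without overlap, and Lrp2, Umod, Slc34a1, Slc12a1, Slc22a6 and Kap were at 0 in at least 1 library. The summed skeletal muscle markers were at 151800 to 185000 CPM with a high score and 89020 to 157900 CPM with a low one, with 7 of 8 genes higher on average. Summed macrophage markers were at 95.8 to 149 CPM against 150 to 247 CPM (8 of 8 lower), fibroblast markers at 538 to 639 against 712 to 1324 CPM (5 of 5 lower) and endothelial markers at 128 to 144 against 165 to 181 CPM (4 of 4 lower). Slow fibre markers were lower on average in 6 of 7 and nerve and glia markers in 4 of 4, both with overlapping sums (914 to 1529 against 500 to 2676 CPM, and 32.1 to 71.8 against 44.7 to 114 CPM). Genes of the mitochondrial genome took 2.54% to 2.94% of counts with a high score and 3.12% to 3.88% with a low one. The part of these in the values of Psmd8, Psmd3 and the regulatory sum was not tested. The clock score and the level of kidney transcripts separate the same libraries. So do the summed macrophage, fibroblast and endothelial markers and the mitochondrial share. These cannot be told apart here.

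Of the other genes of the pathway, 47 listed genes outside the members were tested, and none passed in any age comparison. They were 3 immune-induced catalytic subunits, 5 other caps and inhibitors, 6 assembly factors, 4 further receptors and deubiquitinases of the cap, 5 regulators of proteasome genes, 6 genes of ubiquitin and its activating enzymes, 8 shuttles and unfoldases, and 10 ubiquitin ligases of muscle. Those named here without a call were chosen after their values were seen. At 30 against 3 months 7 of the 47 had an unadjusted p below 0.05, or 14.9% where 8.52% of all genes did. At 24 and 12 months 2 and 4 of them did, or 4.26% and 8.51%, where all genes gave 7.56% and 5.5%. The lowest p of these at 30 months was that of Nfe2l1, the transcription factor that raises proteasome genes when the protease is short. It was at 482 and 508 CPM at 3 months, then 588 and 709 at 12, 656 and 649 at 24 and 780 and 716 at 30 months, all 6 later libraries above both of 3 months. Its log2 fold change at 30 months was 0.60 (SE 0.19 and adjusted p = 0.357 by edgeR). Adrm1, a further ubiquitin receptor of the regulatory particle, had a log2 fold change of 0.59 (SE 0.24 and adjusted p = 0.542 by edgeR). It was at 28.69 and 33.06 CPM at 3 months and 56.48 and 36.65 at 30 months, with the high clock score in the first library of 30 months. By clock state its log2 fold change was 0.41 (SE 0.13 and adjusted p = 0.0854 by edgeR), without overlap of the libraries.

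The immune-induced subunits, which replace the 3 catalytic ones in the immunoproteasome, were much lower than those they replace, with Psmb8 at 2.08, Psmb9 at 0.707 and Psmb10 at 5.5 RPKM. At 30 against 3 months Psmb8 had a log2 fold change of 0.57 (SE 0.29) and Psmb9 of 0.55 (SE 0.23), at adjusted p of 0.653 and 0.561 by edgeR. Psmb8 was at 5.34 and 5.12 CPM at 3 months against 5.95 and 9.55 CPM at 30 months, so that the value rests mainly on replicate 2 of 30 months, where the summed macrophage markers were at 247 CPM against 95.8 to 170 CPM elsewhere. Their part in it was not tested. With the clock score 2 of the 47 passed the test, or 4.26%, below the 5.74% of all genes. Ubqln4, a shuttle that carries ubiquitinated proteins to the proteasome, was higher with a high score, at 87.9, 77.7 and 72.1 CPM against 44.2 to 60.8 CPM, and the log2 fold change came to 0.58 (SE 0.12 and adjusted p = 0.0198 by edgeR). Psmb8 was lower at the later ages in the libraries with a high score, with a log2 fold change of -0.55 (SE 0.15 and adjusted p = 0.0485 by edgeR), from 5.32 and 4.64 CPM (12 months), 6.13 and 3.58 CPM (24 months) and 5.95 and 9.55 CPM (30 months). Macrophage markers, from a cell type that expresses Psmb8, were lower in the same 3 libraries, and their part in this was not tested.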

How the data were processed

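Total RNA of frozen gastrocnemius was extracted and made into paired-end libraries, per the labels' protocols. The authors deposited whole-number counts per Ensembl gene for 8 libraries, not normalized. The submitters' processing notes name Trimmomatic 0.36, STAR 2.5.2b, featureCounts and Subread 1.5.2 and the builds GRCm38 and mm10. Neither the annotation release nor the strand setting or the treatment of reads with several matches is given in the sources used here. Symbols and overlaps came from GENCODE M21, which matched 49056 of 49315 identifiers and gave 27 of the 34 members identical start and end. Gene lengths are the files' summed exon bases.

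The tests used edgeR 4.0.16 in R 4.3.3: filterByExpr on age, TMM scaling, and a robust quasi-likelihood fit to all 8 libraries, of the 4 ages (4 residual degrees of freedom) or of age and clock state (3). The clock state divides the libraries at the widest gap in the score (0.86 to 2.75). P-values were adjusted by Benjamini-Hochberg over all 19571 genes tested. A standard error is the size of the log2 change over the root of its F statistic. A count of 0 in a library allows up to 0.0506 to 0.0707 CPM (3 counts, counting error only). Libraries of one age were not duplicates, since the differences exceeded sampling noise (chi-square over its degrees of freedom 44.1 to 109). The procedure was also run on simulated counts with planted changes. The share of these that it called is not given here, so that run does not bear on the absence of calls.

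The members, the lists and the tests were chosen with earlier results of these data known. Members were named with fold changes by lowest p: 6 for 30 against 3 months and for clock state, and 3 for each other comparison, besides the catalytic subunits. Alternatives were RLE size factors, library totals, no filter, a filter of 1 CPM in 2 libraries with an average log2 CPM of 1, limma-voom (limma 3.58.1), DESeq2 1.42.0, a replicate block, clock state as a term, the clock score as a number, fewer libraries, and each library left out, where the lone library of that age is taken to vary as the other ages do. Added after seeing the data was the regulatory median without the 3 chaperones. Against 3 months it was 0.07 at 30, 0.18 at 24 and 0.12 at 12 months, beside 0.07, 0.15 and 0.11 with them.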

Additional observations from a re-analysis of the deposited data

How the results depend on the processing

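No alternative called a member in any age comparison, and the lowest adjusted p of a member there was 0.185 by edgeR (24 against 3 months without replicate 1 of 24 months). For clock state, the number of members called was 0 in the fit reported. Among the alternatives that kept all 8 libraries, it became 1 with library totals (Psmb5), 2 without a low count filter (Psmd3 and Psmd8) and 1 by DESeq2 (Psmd8). Psmd3 was at 0.52 without replicate 1 and 0.51 without replicate 2 of 24 months, where only the pairs of 12 and 30 months inform the clock state. Of 981 alternative values, 934 were kept, which for a gene means direction and call, and for a median, share or count its size. The size of a gene's fold change was not judged. Psmd3 at 30 against 3 months thus counts as kept at 0.08 without replicate 1 of 30 months, against 0.36 in the fit reported. A further 39 values, all medians or counts, moved in size. Psmc6 between 24 and 12 months ranged from -0.003 (without replicate 2 of 24 months) to 0.692 (without replicate 1) when each library was left out. Psma3 by clock state was -0.028 with library totals, where the median of all genes was -0.22. Over all genes, 30 against 3 months called 29 genes, 378 without a filter, 213 by DESeq2 and 416 with clock state as a term. With the replicate block no member was called in any comparison (Psmd8 by clock state: 0.36, adjusted p = 0.207 by edgeR). The labels do not say that numbers pair libraries, and deviations of same-numbered libraries correlated across genes at -0.36 to 0.26, so the block is not read as a pairing. By pair of ages, the 95% interval lay within 1.41-fold for 21 to 28 of the 34 members, against 17.7% to 21% of all genes. Wider intervals for the other members leave larger changes possible.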
